A study of Homo sapiens with 3 samples.

Results

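The ZNF zinc finger genes are the human genes whose symbol is ZNF followed by digits alone. They were taken from probe sets that name a single gene on an Affymetrix array, with the probe set of highest mean intensity standing for its gene. The members were chosen by measured values of these same arrays: a gene was kept if that probe set was above an intensity of 20 in at least 1 of the 3 arrays. Of 425 such genes on the array, 245 were kept and 180 were above 20 in no array, and 10252 genes of any kind met the same limit. The arrays held RNA of UM-UC-3, a human bladder cancer cell line, transfected with DANCR siRNA1, with DANCR siRNA2 or with a negative control siRNA. All 3 cultures received 75 nM siRNA with the lipid reagent Lipofectamine RNAiMAX, and the series gives a time of 48 h. DANCR is a long noncoding RNA, and each DANCR siRNA is labelled with a target point of its own, under a tag that names another gene, WDR5. Each group had 1 array, so every difference below is a size on these arrays with no replicate check, and no p-value is given. Because several results differ between the siRNAs, their sequences are shown as the labels list them, 5′ to 3′, with the TT end in capitals.
DANCR siRNA1: gcguacuaacuuguagcaaTT
DANCR siRNA2: gagcuagagcagugacaauTT
Negative control siRNA: uucuccgaacgugucacguTT

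Most ZNF genes encode proteins with an array of C2H2 zinc fingers, each finger holding a zinc ion and contacting a few bases of DNA. Many of them also carry a KRAB domain, which binds the corepressor TRIM28 and through it brings histone methylation by SETDB1 and heterochromatin proteins to the bound site. The family is known for binding and silencing transposable elements, and its genes lie in large clusters of neighbours, above all on human chromosome 19. Other ZNF genes are a mixed group that shares only the name, with roles in promoter activation, RNA binding, ribosome quality control or the mitotic spindle.

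Intensities are linear values as deposited, and a ratio is a log2 ratio of 2 arrays after values under 10.5, the median of all values, were raised to that floor. DANCR itself had intensities of 116 with DANCR siRNA1 and 126 with DANCR siRNA2, against 671 in the control siRNA array, ratios of -2.53 and -2.41. The arrays had mean intensities from 95.3 to 96.5, and 48.9% to 49.3% of probe sets lay above the floor. The 3′ to 5′ ratio of ACTB was 11.8 with siRNA1, 14.4 with siRNA2 and 11.9 in the control. That of GAPDH was 1.29, 1.35 and 1.25 in the same order, and the part of either in the results was not tested. Of 9 urothelial markers only GATA3 was above 20 in any array, at 20.2, 35.2 and 20.2 in the siRNA1, siRNA2 and control arrays, while CDH1 and EPCAM were under the floor in all 3. The summed level of 5 epithelial markers was 741, 1051 and 1344 in the same order of arrays, nearly all of it KRT18 at 711, 1022 and 1315, while KRT8 was at 21.5, 21.2 and 21.5. Of 5 mesenchymal markers 4 were above 20, and they did not go one way: VIM had ratios of -0.27 with siRNA1 and -0.13 with siRNA2, ZEB1 -0.08 and -0.43, CDH2 -0.41 and 0.20, and FN1 0.16 and 0.70. Of 5 leukocyte markers 1 was above 20, as were 3 of 5 endothelial and fibroblast and 2 of 4 hepatic and erythroid markers. In a bulk culture, fewer cells that use a gene and less RNA per cell cannot be told apart.

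ZNF227, a KRAB zinc finger gene, lay furthest above the control with both siRNAs. Its intensity was 85.5 with siRNA1 and 76.9 with siRNA2, against 20.3 in the control. Both siRNA arrays were thus well above the control array, 4.22-fold with siRNA1 and 3.79-fold with siRNA2. Its other probe set read 26.2 with siRNA1 and 19.9 with siRNA2, against 7.59 in the control, which lies under the floor. With the control raised to the floor, that probe set gave ratios of 1.31 and 0.92, in the same direction as the first. ZNF227 was chosen as the marker of the family with these values known, so they describe it and support nothing further.

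At 2-fold or more, 6 ZNF genes were higher with both siRNAs than in the control, 2.45% of members, beside 0.868% of all measured genes. No member was 2-fold lower with both, beside 0.341% of all measured genes. The level limit that chose the members read these same arrays, and both ratios share the control array. The 6 members were ZNF227, ZNF776, ZNF558, ZNF664, ZNF317 and ZNF180, and all 6 were above 20 in every array. ZNF776, a KRAB zinc finger gene, had intensities of 56.2 with siRNA1 and 60.3 with siRNA2, against 22.6 in the control. ZNF558, a KRAB gene known to act on the mitophagy gene SPATA18, had 58.2 with siRNA1 and 80.1 with siRNA2, against 23.8 in the control. For these 2 probe sets the siRNA arrays stood 2.49-fold and 2.67-fold (ZNF776) and 2.45-fold and 3.36-fold (ZNF558) above the control. A second ZNF776 probe set, dimmer at 16.9 with each siRNA against 18.3 in the control, gave -0.12 with each and did not follow the first.

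ZNF664 was the brightest of the 6, with 579 with siRNA1 and 597 with siRNA2, against 268 in the control, ratios of 1.11 and 1.16. Its further probe sets did not follow it. One read 28.9 with siRNA1 and 54.8 with siRNA2, against 42.9 in the control, and the other 28.2 with siRNA1 and 26.0 with siRNA2, against 32.5 in the control. Taking the middle value of its 3 probe sets above 20, ZNF664 had a ratio of -0.21 with siRNA1 and 0.35 with siRNA2, so its direction rests on the brightest probe set. ZNF317, a KRAB gene, had 81.7 with siRNA1 and 72.5 with siRNA2, against 34.6 in the control. ZNF180, also a KRAB gene, had 83.1 with siRNA1 and 85.6 with siRNA2, against 40.5 in the control, while its second probe set was near the floor at 11.5 in all 3 arrays. These 2 genes were close to the 2-fold limit: with each array centred on its median, ZNF317 had a ratio of 0.99 with siRNA2, and ZNF180 had 0.99 with siRNA1 and 1.00 (just under 2-fold) with siRNA2. ZNF134 followed at 32.3 with siRNA1 and 31.5 with siRNA2, against 16.3 in the control. ZNF224, a KRAB repressor of the aldolase A gene, had 32.5 with each siRNA against 16.9 in the control. Both were just short of 2-fold, with ratios of 0.99 and 0.95 for ZNF134 and 0.95 with each siRNA for ZNF224. Unlike the 6, these 2 genes met the level limit of 20 through the siRNA arrays alone, so they had to be higher than the control.

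**Figure D1:**
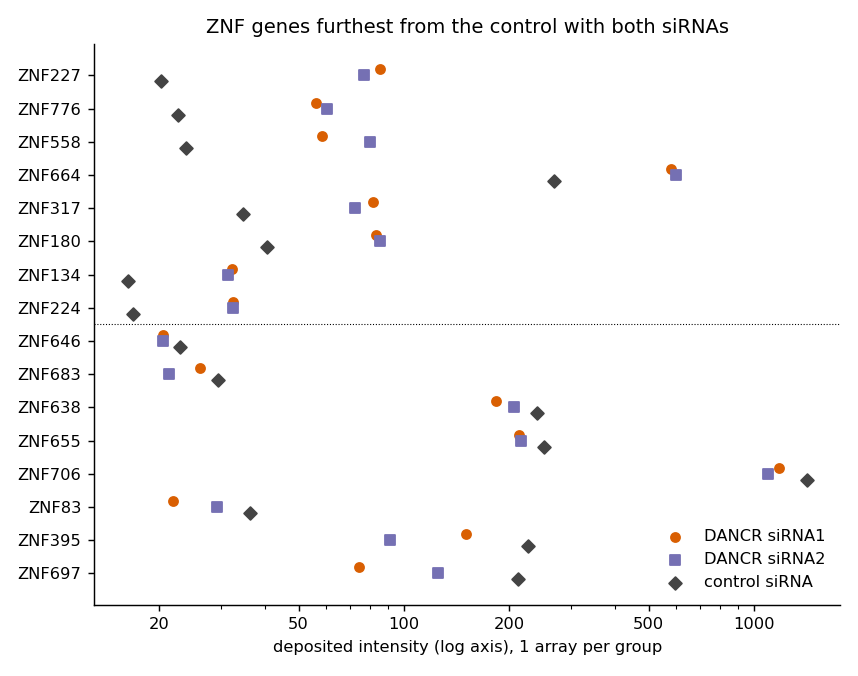
Deposited intensity on a log axis of the 8 ZNF genes furthest above and the 8 furthest below the control with both siRNAs, 1 point per array. Above the dotted line both siRNA arrays lie right of the control, from ZNF227 at 85.5 and 76.9 against 20.3 to ZNF224 at 32.5 and 32.5 against 16.9, and below it both lie left, down to ZNF697 at 74.4 and 125 against 212. ZNF134 and ZNF224 met the level limit through the siRNA arrays alone.

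The start regions of 4 of these 6 genes are shown as examples of 2 short motifs. Both motifs were more common in members' promoters than in those of measured genes, though most members' promoters lacked each. The regions shown come from RefSeq (GRCh38.p14), run from 250 bases before to 50 bases after the gene start, and read 5′ to 3′ on the gene's strand. Capitals mark 2 motifs searched on both strands, CCGGAAG, the core bound by ETS factors, and ACTACAA, part of the site of the promoter activator ZNF143. The letters of these motifs do not allow them to overlap.
ZNF227 promoter, chr19:44212282-44212581, + strand: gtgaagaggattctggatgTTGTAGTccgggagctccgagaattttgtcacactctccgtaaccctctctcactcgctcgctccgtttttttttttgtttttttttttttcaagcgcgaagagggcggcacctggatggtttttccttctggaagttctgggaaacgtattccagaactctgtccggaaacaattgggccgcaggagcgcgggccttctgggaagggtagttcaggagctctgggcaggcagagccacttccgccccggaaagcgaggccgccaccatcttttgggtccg
ZNF180 promoter, chr19:44500473-44500772, - strand: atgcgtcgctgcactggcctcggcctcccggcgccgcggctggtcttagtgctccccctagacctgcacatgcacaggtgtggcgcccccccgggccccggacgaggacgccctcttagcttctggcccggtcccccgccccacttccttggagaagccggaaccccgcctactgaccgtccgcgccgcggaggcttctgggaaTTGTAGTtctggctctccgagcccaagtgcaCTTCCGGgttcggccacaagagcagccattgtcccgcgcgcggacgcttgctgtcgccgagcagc
ZNF317 promoter, chr19:9140147-9140446, + strand: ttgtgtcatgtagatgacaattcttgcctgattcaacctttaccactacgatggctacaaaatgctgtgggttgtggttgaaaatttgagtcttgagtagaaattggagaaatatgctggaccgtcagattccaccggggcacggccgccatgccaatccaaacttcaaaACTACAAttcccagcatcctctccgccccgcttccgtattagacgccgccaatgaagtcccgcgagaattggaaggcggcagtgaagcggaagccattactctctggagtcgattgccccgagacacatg
ZNF558 promoter, chr19:8832255-8832554, - strand: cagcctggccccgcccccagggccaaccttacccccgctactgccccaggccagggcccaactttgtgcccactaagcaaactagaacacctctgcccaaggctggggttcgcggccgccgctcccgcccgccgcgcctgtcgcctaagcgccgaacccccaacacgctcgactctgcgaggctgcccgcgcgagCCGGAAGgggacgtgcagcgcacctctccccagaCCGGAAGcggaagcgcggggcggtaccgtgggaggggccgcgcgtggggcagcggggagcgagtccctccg
ZNF227, ZNF180 and ZNF317 each held the ZNF143 core once, ZNF180 held the ETS core once and ZNF558 held it at 2 places. Of the other two genes, not shown, ZNF776 held the ETS core once and ZNF664 held neither. A promoter in the RefSeq table was matched for 213 of the 245 members. The ETS core was in 42.7% of those 213, beside 20.8% of the 8467 promoters of measured genes and 10.7% of all 27305 promoters in the table. The ZNF143 core was in 8.92% of members' promoters, beside 4.11% for measured genes and 2.95% for all promoters. Among members higher with both siRNAs the ETS core was in 43.4% of 113 promoters, and among the other members in 42.0% of 100. The ZNF143 core was in 11.5% of the first set and 6% of the second, 13 and 6 promoters. The ETS core was thus about as common in members that were higher as in those that were not. The SP/KLF box GGGCGG was in 68.5% of members' promoters and 71.9% of those of measured genes, and may overlap the ETS core by its end letters. The median promoter of members had 24 CpG dinucleotides and 63% G and C, against 27 and 65.7% for measured genes. A match is only a run of letters in these windows, and 7 motifs were searched in all.

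Beyond these few genes, the family as a whole sat higher with both siRNAs. Of the 245 members, 131 had ratios above 0 with both siRNAs and 26 had ratios below 0 with both, which is 53.5% and 10.6%. Among all 10252 measured genes the shares were 33.6% and 23.2%. Taking each siRNA by itself, 172 members were above the control with siRNA1, 70.2% beside 47.1% of all measured genes, and 152 with siRNA2, 62.0% beside 51.2%. A further 38 members had ratios of opposite sign, and 50 had a ratio of exactly 0 with at least 1 siRNA, where the deposited values were equal or both lay under the floor. The control array was the lowest of the 3 in 131 members, siRNA2 in 39 and siRNA1 in 27, whereas over all measured genes the control was lowest in 33.6%, siRNA2 in 21.9% and siRNA1 in 28.0%. The median ratio of members was 0.18 with siRNA1 and 0.11 with siRNA2, beside 0.00 and 0.02 over all measured genes. From the 25th to the 75th percentile, members ran from 0.00 to 0.53 with siRNA1 and from 0.00 to 0.44 with siRNA2. All measured genes ran from -0.17 to 0.25 and from -0.12 to 0.28. The shift was therefore spread over many genes at small size.

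The split depends on the scaling. With each array centred on its median, 116 members were higher and 64 lower with both, beside 28.3% and 42.1% of all measured genes. After quantile normalisation 118 were higher and 58 lower, beside 30.7% and 36.7%. The choice of members also leaned on the siRNA arrays: 14 members were above 20 in both siRNA arrays and not in the control, 15 in siRNA1 alone, 3 in siRNA2 alone and none in the control alone. Another 2 were above 20 in siRNA1 and the control, and 3 in siRNA2 and the control. Among the 208 members above 20 in all 3 arrays, 110 were higher with both, 52.9%, and 25 were lower with both, beside 33.7% higher and 22.8% lower among the 9625 genes that met that limit. With no level limit, 149 of the 425 genes were higher with both and 31 lower, 35.1% and 7.29%, beside 18.3% and 14.9% of all 19775 genes. Just above the limit of 20 in their brightest array were ZNF44 at 20.2, ZNF668 at 20.4 and ZNF268 at 20.5. Just below it were ZNF670 and ZNF839 at 19.9 and ZNF615 at 19.5.

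**Figure D2:**
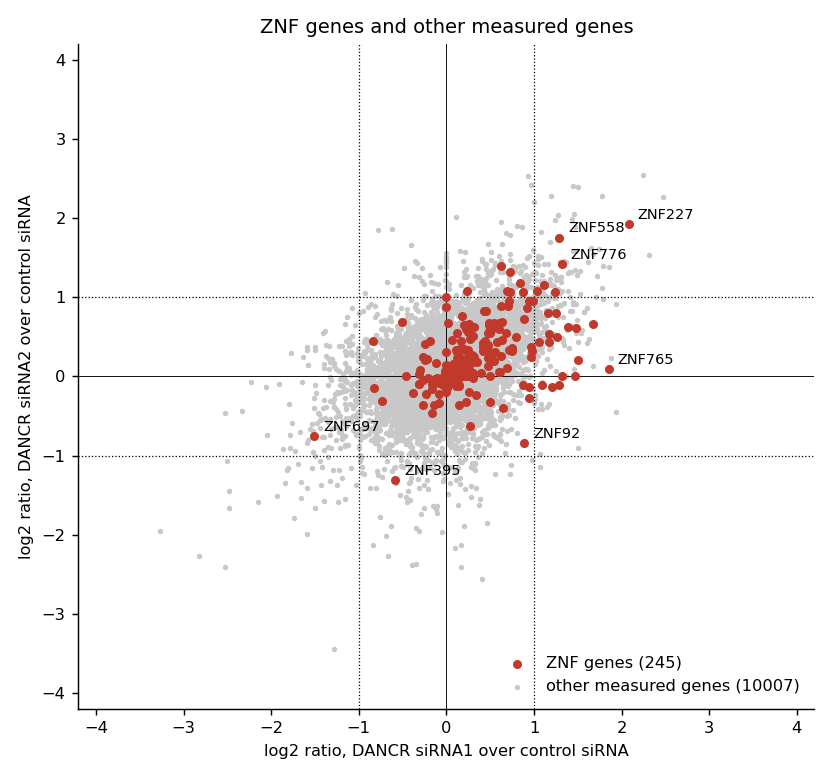
Log2 ratio of DANCR siRNA2 over control (vertical axis) against that of DANCR siRNA1 over control (horizontal axis), 1 point per gene, with 245 ZNF genes in red and 10007 other measured genes in grey. Dotted lines mark 2-fold; 131 ZNF genes lie in the upper right area and 26 in the lower left, and the axes share the control array.

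The direction was alike across the 4 brightness classes, but the share in the lowest class rests in part on the level limit. Some of its members met that limit only through the siRNA arrays, such as ZNF268 and ZNF134, so they had to be higher there. Among probe sets with a mean of 30 or less, 49.2% of 59 members were higher with both siRNAs, against 20.5% of 1350 other genes. From 30 to 50 the shares were 50.8% of 65 members and 28.9% of 1396 others, and from 50 to 100 they were 61.1% of 72 and 35.1% of 2085. Above 100 they were 51.0% of 49 members and 36.7% of 5176 others. In each of the 4 classes, fewer members than other genes were lower with both, from 4.62% against 21.8% between 30 and 50 to 18.4% against 23.8% above 100.

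**Figure D3:**
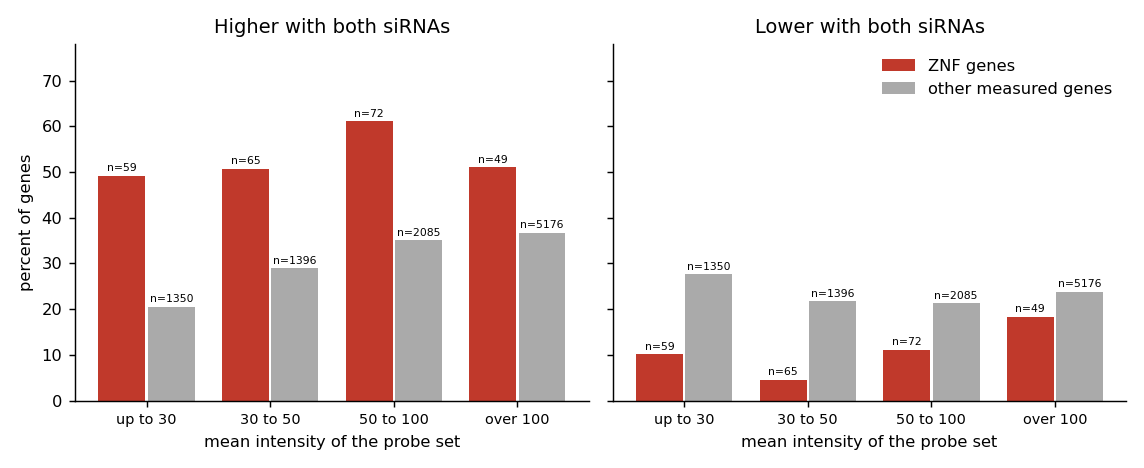
Percent of genes with ratios above 0 (left) and below 0 (right) with both siRNAs, by mean intensity of the probe set, for ZNF genes (red, left bar) and other measured genes (grey), with the number of genes over each bar. The red bar is the taller one in every class on the left, 61.1% against 35.1% at 50 to 100, and the shorter one in every class on the right.

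Members with low values against the control were few. ZNF697 had 74.4 with siRNA1 and 125 with siRNA2, against 212 in the control, with log2 ratios of -1.51 and -0.76. ZNF395, a factor induced by hypoxia, had 151 with siRNA1 and 91.3 with siRNA2, against 226 in the control, with log2 ratios of -0.58 and -1.31. These were the members 2-fold lower with 1 siRNA, ZNF697 with siRNA1 and ZNF395 with siRNA2, where 2.13% and 1.47% of all measured genes were. The next probe set of ZNF395 gave ratios of -0.22 and -0.46, and the middle of its ratios with siRNA2 was -0.89. ZNF83 had ratios of -0.73 and -0.31, and ZNF683, which encodes the lymphocyte factor HOBIT, -0.16 and -0.46. ZNF655, whose protein binds the signalling factor VAV1, had -0.24 and -0.22. A second ZNF655 probe set gave -0.37 and 0.11, so the sign with siRNA2 differed between its probe sets. ZNF646 had -0.16 with each siRNA at intensities of 20.5, 20.5 and 23.0. ZNF706, the brightest member, had 1174 with siRNA1 and 1094 with siRNA2, against 1411 in the control, ratios of -0.27 and -0.37. Its other probe set read 51.8 with siRNA1 and 14.3 with siRNA2, against 69.2 in the control, so the ratio with siRNA2 was further below 0 there, at -2.27.

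ZNF genes with RNA, ribosome or spindle roles went both ways. Of 9 such members, 2 were higher and 3 lower with both siRNAs, 22.2% and 33.3% beside 33.6% and 23.2% of all measured genes, with median ratios of 0.00 and -0.02. On median-centred or quantile-normalised arrays 5 of the 9 were lower. By the median over probe sets above 20, 2 were higher and 1 lower, with median ratios of 0.31 and -0.05. ZNF622, which helps mature the large ribosomal subunit, had 326 with siRNA1 and 248 with siRNA2, against 194 in the control, ratios of 0.75 and 0.36. ZNF830, tied to splicing, had ratios of 0.48 and 0.55. Both were above the control with each siRNA, by less than 2-fold. ZNF207, which loads the checkpoint protein BUB3 at the spindle, had 832 with siRNA1 and 961 with siRNA2, against 1030 in the control. ZNF638, which recruits a silencing complex to retroviral DNA, had 183 and 207 against 239 in the same order. The next brightest probe sets of ZNF207 (-0.46 and -0.23) and ZNF638 (-0.28 and -0.12) were also lower with both. Some dimmer ones were not, such as 1 of ZNF207 at 0.00 with each siRNA and 1 of ZNF638 at 0.22 and 0.33. The ubiquitin ligase of collided ribosomes, ZNF598, had ratios of -0.46 and 0.00. The remaining 4 were ZNF593 (0.11 and -0.13), the splicing factor ZNF326 (0.00 and -0.07), the double-stranded RNA binder ZNF346 (0.21 and 0.00) and the SUMO ligase ZNF451 (-0.21 and -0.02). Further probe sets of ZNF451 went another way, at 0.84 and 0.10 on 1 of them and 0.42 and -0.83 on another.

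Promoter activators and corepressor adaptors had 5 of 6 measured genes higher with both siRNAs, beside 33.6% of all measured genes, but only 2 of 6 with either other scaling. Their median ratios were 0.19 and 0.08, so the sizes were small. ZNF143, an activator of many housekeeping promoters, had 106 with each siRNA against 96.9 in the control, and its paralogue ZNF76 had ratios of 0.22 and 0.04. The GC-box binder ZNF148 had 0.02 and 0.12, but each of its further probe sets above 20 was below the control with siRNA1, from -0.48 to -0.02. Another GC-box binder, ZNF281, had 0.61 and 0.05. ZNF217, an oncogene amplified in breast cancer, had 0.16 and 0.18, and ZNF644, a partner of the G9a and GLP methyltransferases, had 0.22 and -0.32. ZNF532 and ZNF592 form a module with the chromatin reader ZMYND8. ZNF532 had 0.13 and -0.02, and 0.00 and -0.32 on its second probe set. ZNF592 had -0.06 with each siRNA, but 0.54 and 0.34 on 1 further probe set and 0.08 with each on another. ZNF445, which keeps imprinted genes methylated, was lower with both, at 67.9 with siRNA1 and 58.2 with siRNA2, against 75.0 in the control. Bright members included ZNF146, whose protein is little more than a row of fingers, with 593 and 525 against 381, ZNF330 with ratios of 0.11 with each siRNA, and ZNF639 with 0.00 and -0.12.

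Single siRNAs gave a wider set. With siRNA1, 22 members were at least 2-fold higher, 8.98%, beside 2.26% of all measured genes, and with siRNA2 there were 13, 5.31%, beside 2.6%. Over genes above 20 in all 3 arrays the shares with siRNA1 were 8.17% of members and 2.01% of genes, and with siRNA2 they were 6.25% and 2.14%. Among the higher genes with siRNA1, chosen here after their values were seen, was ZNF274, a KRAB protein that brings SETDB1 to the 3′ ends of other ZNF genes. It had 136 with siRNA1 and 99.6 with siRNA2, against 57.1 in the control. A second ZNF274 probe set read 37.5 with siRNA1 and 31.8 with siRNA2, against 31.8 in the control, ratios of 0.24 and 0.00. With siRNA2, ZNF12 had 181 against 85.8 in the control, but 101 with siRNA1. The ratio of ZNF12 with siRNA2 was 0.99 as the middle value of its probe sets.

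Between the siRNA arrays the members had a median ratio of siRNA1 over siRNA2 of 0.00, and 15.1% had a ratio of exactly 0. All measured genes also had a median of 0.00, with 14.5% at exactly 0. Above 0 lay 49.0% of members and below it 35.9%, beside 39.1% and 46.4% of all measured genes. At 2-fold, 12 members were higher with siRNA1 than with siRNA2, 4.90%, and 2 were lower, 0.816%, beside 1.83% and 2.92% of all measured genes. Of these 14 members, 7 were above 20 in all 3 arrays, 5 higher and 2 lower with siRNA1, so the count rests in part on the level limit being met with siRNA1. With 20 required in all 3 arrays, 2.40% of 208 members were 2-fold higher with siRNA1, nearer to the 1.66% of all 9625 genes. Lower by 2-fold were 2 of those 208 members and 241 of those 9625 genes. ZNF765, which binds L1 retrotransposons, had 134 with siRNA1 against 39.5 with siRNA2, with 37.2 in the control. Its second probe set read 87.0 with siRNA1 against 36.9 with siRNA2, with 33.4 in the control, so 2 probe sets gave the same order. ZNF92 had 87.9 with siRNA1 against 26.5 with siRNA2, with 47.5 in the control between them. ZNF680 had 43.8 with siRNA1 against 15.9 with siRNA2, the same as the control, ZNF100 had 32.9 against 12.5, with 13.5 in the control, and ZNF138 had 26.7 against 8.21, with 11.5 in the control. The other direction was led by ZNF275, at 83.6 with siRNA1 against 203 with siRNA2, with 149 in the control. ZNF516, a factor of brown fat genes in mouse, followed at 35.2 with siRNA1 against 80.4 with siRNA2, with 49.9 in the control. ZNF629 had 42.9 with siRNA1, equal to the control, and 78.5 with siRNA2. ZNF594 was under the floor with siRNA1 and in the control and at 21.1 with siRNA2.

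Among ZNF genes known to bind transposable elements, 3 of 6 on the array were measured, and all 3 had a positive ratio with siRNA1, where 47.1% of all measured genes did. ZNF93 met the level limit through the siRNA1 array alone, so it had to be higher there. ZNF91, which silences SVA elements, had 43.0 with siRNA1 and 27.2 with siRNA2, against 21.8 in the control. ZNF93, which silences L1 elements, had 22.4 with siRNA1 and 12.7 with siRNA2, against 15.9 in the control, ratios of 0.50 and -0.32. Its second probe set gave 0.98 and 0.36, so the sign with siRNA2 differed between its probe sets. The last of the 3, ZNF765, is described above.

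Position in the genome was not used to choose members. Of 94 members on chromosome 19, 65 were higher and 3 lower with both siRNAs, 69.1% and 3.19%. Of 151 on other chromosomes, 66 were higher and 23 lower, 43.7% and 15.2%. The 577 other measured genes on chromosome 19 had 20.5% higher and 27.4% lower, so the ZNF genes of chromosome 19 were more often higher, and less often lower, than its other genes. With median-centred arrays 57 of the 94 members on chromosome 19 were higher and 16 lower, against 59 and 48 of the 151 other members and 93 and 299 of the chromosome's 577 other genes. Median ratios were 0.30 and 0.25 for members on chromosome 19 and 0.12 and 0.05 for the rest. The 162 members with another ZNF gene within 250 kb had 59.9% higher with both, and the 83 without a ZNF neighbour had 41.0%. Neighbours were joined in runs when the gap between ZNF genes was at most 250 kb, which gave 13 runs with 5 or more members, 8 of them on chromosome 19.

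ZNF227 lies in a chromosome 19 run that goes from ZNF575 to ZNF180 and held 11 members. In that run 9 of 11 were higher and none lower with both siRNAs (8 and 2 with either other scaling), with median ratios of 0.35 and 0.43. Of its 9 members above 20 in all 3 arrays, 7 were higher and none lower, with medians of 0.35 and 0.18. Its members at 2-fold with siRNA1 were ZNF227, ZNF226, ZNF45 and ZNF180. ZNF226, beside ZNF227 among the members of the run and named here after its values were seen, had 89.3 with siRNA1 and 48.9 with siRNA2, against 32.0 in the control. Not every neighbour differed from the control: ZNF284 had 33.5 in all 3 arrays, and ZNF576 had 95.2 with siRNA1 and 96.9 in the other arrays. Runs from ZNF317 to ZNF846 on chromosome 19 and from ZNF605 to ZNF268 on chromosome 12 had all of their members higher with both. These were 6 of 6 and 5 of 5, beside 33.6% of all measured genes. ZNF268, in the chromosome 12 run, met the level limit through the siRNA arrays alone, so it had to be higher. The 4 members of that run above 20 in all 3 arrays were all higher. Median ratios were 0.70 and 0.95 in the first and 0.72 and 0.80 in the second. In the first, ZNF121 had 298 with siRNA1 and 341 with siRNA2, against 162 in the control. In the second, ZNF605 had 103 with siRNA1 and 156 with siRNA2, against 62.3 in the control. The longest run by members, from ZNF264 to ZNF446 on chromosome 19, had 15 of 21 higher and 1 lower, with ZNF776, ZNF274 and ZNF134 among them. Of the 19 members of this run above 20 in all 3 arrays, which leave out ZNF134, 13 were higher and 1 lower.

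A run on chromosome 7 from ZNF722 to ZNF117 behaved differently with the 2 siRNAs. Its 5 members had a median ratio of 1.21 with siRNA1 and -0.11 with siRNA2, and each was at least 2-fold higher with siRNA1 than with siRNA2. ZNF107 had 61.2 with siRNA1 against 26.5 with siRNA2, with 28.7 in the control, and was the only one of the 5 above 20 in every array. ZNF273 had 26.3 with siRNA1 against 7.99 with siRNA2, with 9.20 in the control, and ZNF736 had 22.2 against 8.68, with 11.5 in the control. These 2, ZNF680 and ZNF138 met the level limit through the siRNA1 array alone, so they had to be higher there. A chromosome 19 run from ZNF101 to ZNF254, which holds ZNF100, ZNF91 and ZNF93, had median ratios of 0.62 (siRNA1) and 0.00 (siRNA2) over 11 members. In that run 5 of 11 members were above 20 in the siRNA1 array alone, so they too had to be higher there, and the 5 members above 20 in all 3 arrays had medians of 0.30 and 0.00. Probe sets with the suffix _x_at, whose probes can match several related transcripts, stood for 4 of 5 members in the first of these runs and 4 of 11 in the second. Whether RNA of 1 paralogue binds the probes of another was not tested.

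**Figure D4:**
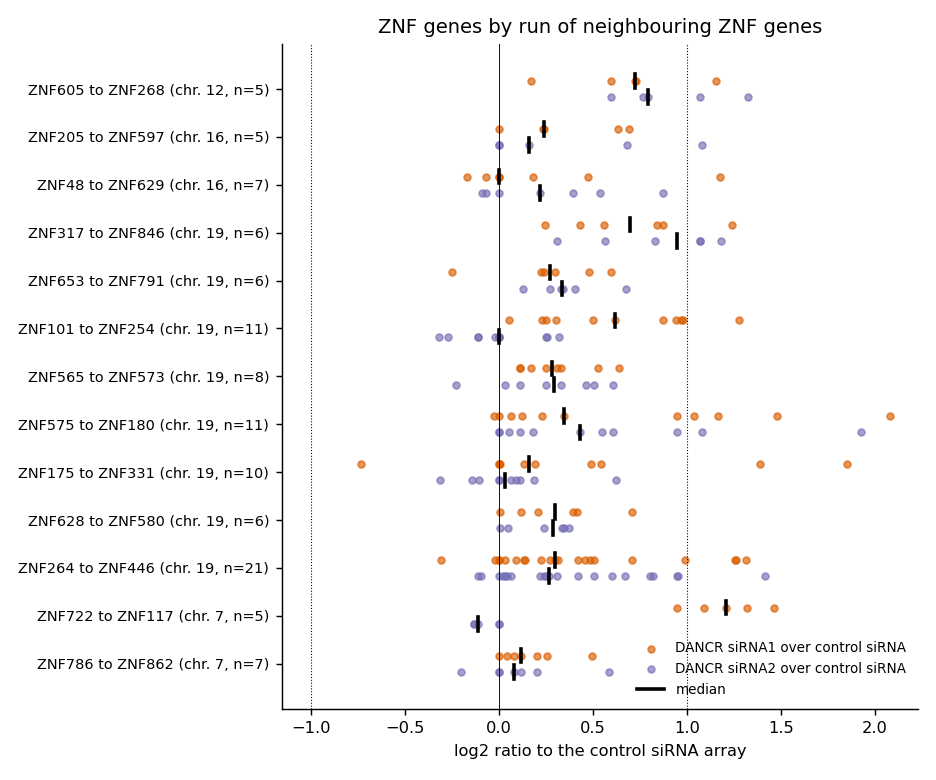
Log2 ratios to the control array of the ZNF genes in each of the 13 runs of neighbouring ZNF genes with 5 or more members, siRNA1 (orange, upper row) and siRNA2 (purple, lower row), with black bars for medians and dotted lines at 2-fold. Most runs have both medians right of 0, and the chromosome 7 run from ZNF722 to ZNF117 has siRNA1 at 1.21 and siRNA2 at -0.11.

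By probe set type, the 175 members with a plain _at probe set had 60% higher and 9.71% lower with both siRNAs. The 40 with an _s_at probe set had 47.5% and 10%, and the 27 with an _x_at probe set had 25.9% and 11.1%. For _x_at members the median ratio was 0.07 with siRNA1 and 0.00 with siRNA2, while for plain ones it was 0.19 and 0.21. The share of members higher with both was largest among the plain probe sets of these 3 types and, for _x_at, below the 33.6% of all measured genes. Other genes were not split by type, so a trait of the probe sets and one of the ZNF genes cannot be told apart. Without _s_at and _x_at probe sets, 56.7% of 194 members and 33.1% of 7649 genes were higher with both.

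Second probe sets gave another reading of the same RNA on the same arrays. Of the 245 members, 175 had more than 1 single-gene probe set, and 79 had a further one above 20 in at least 1 array. On the brightest further probe set of those 79, the ratio with siRNA1 had the same sign as the main one in 49, the opposite sign in 11, and a 0 on either side in 19. With siRNA2 the counts were 52, 8 and 19. Agreement between probe sets was not counted over all measured genes, so these counts do not set the ZNF genes apart. Of 40 members higher with both siRNAs on the main probe set, 27 were also higher with both on the further one and 1 was lower with both. Over the 79 further probe sets 33 were higher and 13 lower with both, 41.8% and 16.5%, nearer to all measured genes than the main probe sets were, and none was 2-fold higher with both. Median ratios were 0.09 with siRNA1 and 0.11 with siRNA2.

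**Figure D5:**
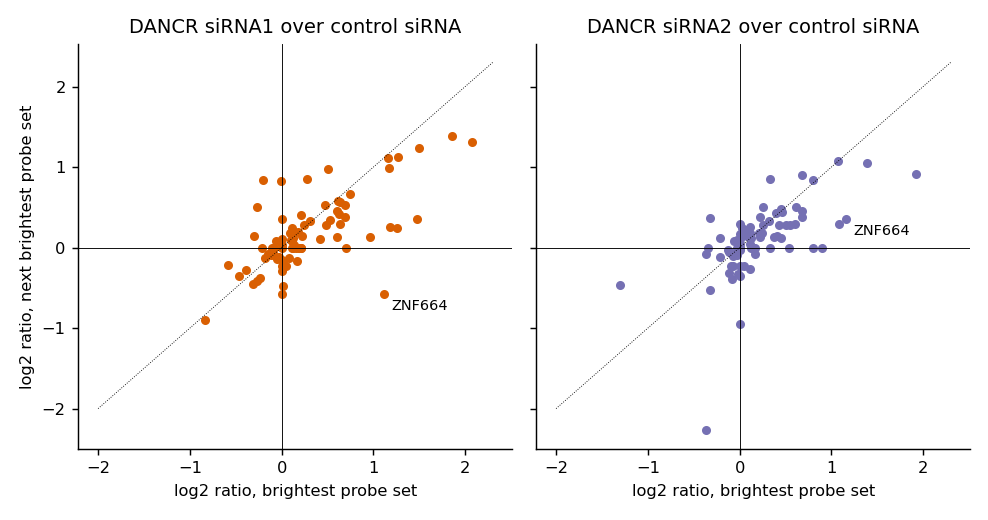
Log2 ratio to the control of the next brightest probe set (vertical axis) against that of the brightest (horizontal axis) for the 79 ZNF genes with a second probe set above 20, with siRNA1 on the left and siRNA2 on the right and a dotted line of equality. Most points have the same sign on both axes, 49 for siRNA1 and 52 for siRNA2, and ZNF664 is marked at 1.11 and -0.57 on the left.

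Related C2H2 families showed shares of different size. Of 22 measured ZNF genes whose symbol ends in a letter, 16 were higher and 1 lower with both siRNAs, with medians of 0.39 and 0.48. The ZSCAN and ZKSCAN genes, which carry a SCAN dimerisation domain, had 11 of 17 higher and none lower, and ZFP genes had 7 of 11 higher and 1 lower. The ZBTB genes, whose BTB domain binds other corepressors, had 12 of 34 higher and 7 lower, 35.3% and 20.6%. The KLF and SP factors had 7 of 16 higher and 5 lower. With median-centred arrays 16 of the 22 letter-suffix genes were higher and 3 lower. For ZSCAN and ZKSCAN genes the counts were 11 and 3 of 17, and for ZFP genes 7 and 2 of 11. The same scaling gave 11 of 34 ZBTB genes higher and 11 lower, and 6 of 16 KLF and SP genes higher and 9 lower. The shares higher in these 2 families were then 32.4% and 37.5%. Median centring left 28.3% higher and 42.1% lower in the full set of measured genes, the background for all these median-centred counts. Before median centring the 2 families had 35.3% and 43.8% higher. The full set then had 33.6% higher and 23.2% lower.

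All 20 listed genes of the machinery through which KRAB proteins silence genes were measured. With both siRNAs 4 were higher and 9 lower, 20% and 45%, beside 33.6% and 23.2% of all measured genes, with medians of -0.05 and -0.08. The 4 that were higher, named after their values were seen, were SETDB1, TASOR, HDAC1 and PPHLN1. TRIM28, the KRAB corepressor, had 334 with siRNA1 and 350 with siRNA2, against 414 in the control, ratios of -0.31 and -0.24. SETDB1, its histone methyltransferase, had 68.6 with siRNA1 and 59.2 with siRNA2, against 42.2 in the control, ratios of 0.70 and 0.49. TASOR, the scaffold of the HUSH silencing complex, had 160 with siRNA1 and 127 with siRNA2, against 80.3 in the control, ratios of 1.00 (just under 2-fold) and 0.66. The histone deacetylase HDAC1 had 0.39 and 0.56, and PPHLN1, another HUSH subunit, had 0.13 and 0.30. Among the lower genes, the heterochromatin protein gene CBX3 had 667 with siRNA1 and 302 with siRNA2, against 891 in the control. Its ratio with siRNA2 was -1.56, but -0.93 as the middle value of its probe sets and -0.29 without _s_at and _x_at probe sets. UHRF1, which guides maintenance DNA methylation, had 305 with siRNA1 and 439 with siRNA2, against 676 in the control, with ratios of -1.15 and -0.62. Another heterochromatin protein gene, CBX5, had 163 with each siRNA against 324 in the control, ratios of -0.99. No listed corepressor gene was 2-fold from the control with both siRNAs.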

How the data were processed

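RNA of UM-UC-3 cells was measured on 3 Affymetrix arrays, 1 per group, and groups were taken from the sample labels. Each probe set has 1 deposited intensity per array, linear and from 1.03 to 9730. The submitters' processing notes name GCOS 1.4, and the scaling method is not given in the sources used here. Values repeated between arrays make some ratios exactly 0. Platform annotation gave 41097 of 54675 probe sets a single gene, 1801 several and 11777 none. Symbols were updated by gene ID in the RefSeq table for 41043. That table (GRCh38.p14) also gave neighbours, chromosomes and promoters.

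With 1 array per group no p-value was computed. The number of arrays limits the precision. Log2 ratios used a floor at the 50th percentile (10.5). Counting was tested on simulated data. The members, gene lists and rules were chosen with earlier results of these data known. Genes named were ZNF227, members at 2-fold in the same direction with both siRNAs, the 8 furthest above and 8 below, the 5 most apart each way between siRNAs, the 6 brightest, role-list members, those with further probe sets 1 or more away on the log2 scale in the opposite direction, TRIM28, DANCR, 2-fold corepressors, members 2-fold in opposite directions (none) and 3 on each side of the limit of 20. Others, from the runs, single siRNAs and corepressors, were chosen after their values were seen. Alternatives were 2 scalings, 3 floors, 3 level limits, 2 probe set rules and 2 thresholds. Python 3.11.15, numpy 2.4.6, pandas 2.3.3 and matplotlib 3.10.9 were used.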

Additional observations from a re-analysis of the deposited data

How the results depend on the processing

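No paired analysis was possible because each group had 1 array. The count of members lower with both siRNAs, 26, became 64 with median-centred arrays, 58 after quantile normalisation and 17 with a level limit of 50, under which 78 were higher with both in place of 131. Members 2-fold higher with both, 6, became 27 at a threshold of 1.5-fold, with 1 lower, and 1 at 3-fold, while all measured genes had 433, 159 and 6. Members 2-fold apart between the siRNAs, 14, became 9 with the floor at 20, 6 with a level limit of 50, 7 with 20 required in all 3 arrays, 9 without _s_at and _x_at probe sets, 38 at 1.5-fold and 2 at 3-fold. The ratio of ZNF664 with siRNA1 became -0.21 by the median over probe sets, which holds its dimmer probe sets. The cause of the other changes was not tested, apart from fewer genes under stricter limits. Medians of members and of corepressors moved by 0.1 or less under each of the 10 alternatives other than thresholds, but some of these medians are no larger than that. The member median with siRNA2, 0.11, became 0.03 with median-centred arrays and 0.04 after quantile normalisation. Over all measured genes it went from 0.02 to -0.06 and -0.03. The corepressor median with siRNA1, -0.05, became -0.13 by the median over probe sets. Of the ratios of named genes under these alternatives, 1001 kept their side of 2-fold, 12 came to lie under it, 4 passed it and 1, of ZNF664, changed sign at 2-fold. Of ratios under 2-fold, 16 changed sign under an alternative, among them ZNF451 with siRNA1, which became 0.42 by the median over probe sets. How the chromosome, family and role groups split under other settings was added after seeing the data. Several members have values near the floor, where brightness over background limits a ratio.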

Other observations

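Probe sets that name a ZNF gene together with other genes were left out of the report. Of 46 such probe sets, 25 were above 20 in at least 1 array, and 10 of these were higher and 4 lower with both siRNAs, with none 2-fold in both. A probe set naming TMEM192 and ZNF320 had 188 with siRNA1 and 155 with siRNA2, against 84.6 in the control. The 2 brightest that carry the activators ZNF410 and ZNF263, each with a neighbouring gene, gave log2 ratios of 0.21 and 0.31 for ZNF410 and 0.54 and 0.49 for ZNF263. The 3 that name ZNF395 with FBXO16 were lower with both siRNAs, and with siRNA2 their ratios were -1.38, -1.50 and -1.20, on the same side as ZNF395 on its own probe set.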
